A study of Mus musculus with 4 samples.

Results

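The genes described here are 44 molecular chaperones, folding enzymes and regulators of the heat shock and unfolded protein responses, taken by name from the 17104 genes of the expression table. All 44 had a row in the table, and 42 had a mean FPKM of at least 1 and could be tested. They were measured in leukemic stem cells (LSCs) of a mouse acute myeloid leukemia. Hspa1a and Hspa1b, the stress-inducible HSP70 genes, stayed below that level.

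Chaperones hold newly made or unfolded proteins until they reach their native shape. In the cytosol, HSP70 and its J-domain partners pass clients on to HSP90 or to the CCT ring, and HSF1 turns on many of these genes upon heat or other protein damage. The endoplasmic reticulum (ER) has its own set, with the HSP70 protein BiP, the HSP90 protein GRP94, the lectin chaperones calnexin and calreticulin and the disulfide isomerases, and the unfolded protein response raises them through ATF6 and spliced XBP1. GRP94 is known for folding integrins and Toll-like receptors, which blood cells carry on their surface.

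The study sequenced sorted marrow LSCs (YFP+ and c-kit+), with 2 libraries labelled CD37 fl/fl and 2 labelled CD37 -/-, to ask how loss of the tetraspanin CD37 alters these cells. All donor cells were lineage-negative marrow of CD37 fl/fl, Rosa26-CreERT2 mice, infected with the MSCV-MLL-AF9-IRES-YFP retrovirus, so the fusion oncogene, the floxed allele and the Cre were shared by both genotypes. Recipients of these infected cells were given tamoxifen, which activates the ubiquitously expressed Cre, for CD37 -/- and corn oil for CD37 fl/fl. The paper's methods describe no drug for the new recipients of later transplantations. The drug and the deletion cannot be told apart. Cells came from male C57 mice 6 weeks after transplantation, in the secondary transplantation of the study. The labels give neither the number of mice per library nor whether mice were pooled, so the p-values measure the spread between these libraries, which may be technical.

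Expression was deposited as FPKM, the fragments of a gene over its kilobases and the assigned reads of the library. Values came out as whole reads in 98.9% to 99.0% of genes per library when the kilobases were those of the whole gene span, introns included, within 0.05 reads, a tolerance met by 10% of random values. These reads imply totals of 15327355 to 22627499 per library. Changes were taken on log2(FPKM + 1), which understates those of low genes, and levels were compared between genes only as TPM by exon length, transcripts scaled to the same sum in each library. Cd37 had an FPKM of 56.6 and 46.8 in CD37 fl/fl and of 23.2 and 22.9 in CD37 -/- LSCs, so that 44.6% of its mean level was left. The loxP sites flank only part of Cd37, and this total also counts exons outside them. How complete the deletion was cannot be read from it. Among markers fixed for other cells, 5 T and NK cell genes summed to 13 to 50 reads per library. The 8 stromal and endothelial genes summed to 1211 and 2504 reads in CD37 fl/fl and to 1712 and 3522 in CD37 -/- libraries. Most of these were reads of Pecam1, with 1190 and 2465 against 1689 and 3464. The 7 plasma and B cell genes in the table summed to 1148 to 2472 reads. Pax5, the B cell regulator, had an FPKM of at most 0.00516, Ighm had 17.7 and 9.29 in controls (CD37 fl/fl) against 7.73 and 19.6, and Cd79b had 12.5 and 15.3 against 8.02 and 6.16 and passed as lower at an unadjusted p under 0.05. The 7 erythroid genes had a summed FPKM of 60.9 and 5.17 in controls and of 576 and 143 in CD37 -/- libraries, which was 0.000672% to 0.0707% of the reads, and the 4 that could be tested passed as higher. The part of B cell, erythroid, stromal and endothelial genes in the results below was not tested. Hoxa9, a target of MLL fusions, had an FPKM of 38.8 to 47.2 in the 4 libraries. The sort gene Kit, with 213 to 804 reads, had an FPKM of 0.170 and 0.325 in controls against 0.327 and 0.434. Meis1, of the same list of LSC checks, had 0.512 and 0.573 against 0.884 and 0.851. Both were higher in both CD37 -/- libraries, narrowly so for Kit, as were 38.2% of all tested genes. Their mean FPKM was under 1, and they were not tested. Of 5 tested genes in a list of LSC checks that holds Hoxa9 and Kit, Hoxa10 (3.79 and 4.30 against 8.01 and 10.4) and the leukocyte gene Ptprc (0.765 and 0.841 against 1.78 and 2.93) passed as higher and the granule enzyme gene Mpo (80.3 and 51.6 against 34.4 and 20.8) as lower, unadjusted, and their part in the results was not tested either.

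Folding genes were abundant in these LSCs. Members took 2.22% and 2.99% of all reads in CD37 fl/fl LSCs, against 2.61% and 2.55% in CD37 -/- LSCs. By exon length, the highest level was that of Hsp90ab1, the constitutive cytosolic HSP90, at a TPM of 1764 and 3091 in CD37 fl/fl, against 2503 and 2803 in CD37 -/- LSCs. Calreticulin (Calr) came next, at a TPM of 1279 and 2223 against 1811 and 2137, and its range overlapped that of Hsp90ab1. At the other end, the 44th and the 43rd in order were Hspa1a, with 18 and 2 reads in the controls and 1 and 4 in CD37 -/- LSCs, and Hspa1b, with 9, 22, 8 and 21 reads. These HSP70 genes have no introns and share 55.2% of their 15-base stretches, so reads could be split between them.

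**Figure D1:**
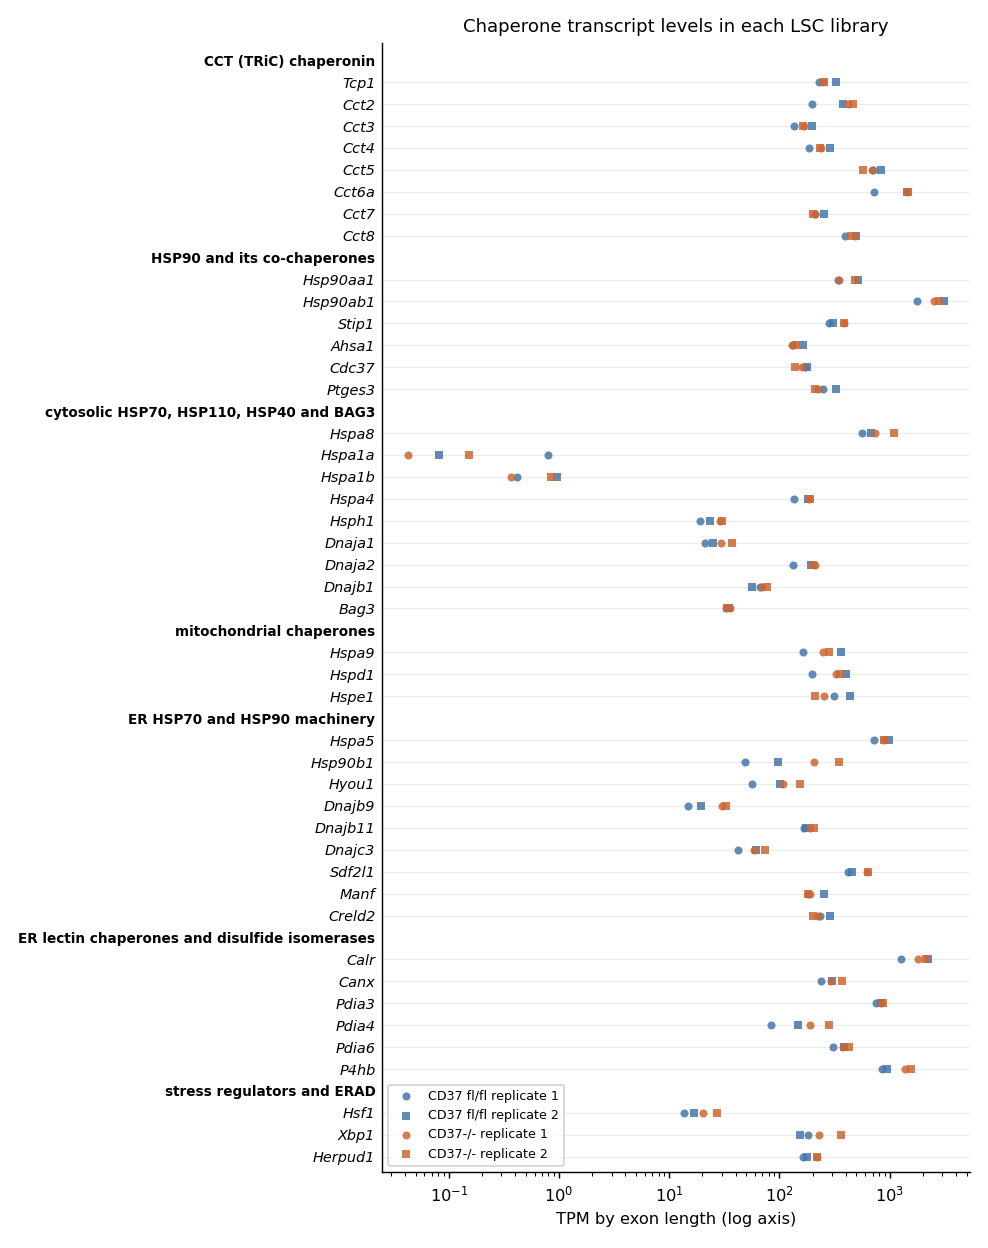
Level of each of the 44 genes in each library, in TPM by exon length on a log axis, with 1 point per library (blue, CD37 fl/fl; orange, CD37 -/-; circles, replicate 1; squares, replicate 2) and genes grouped by role. Hsp90ab1 and Calr are highest, Hspa1a and Hspa1b lie below 1, and the blue and orange points of Hsp90b1 do not overlap; this scale sets every library to the same sum and is meant for comparing genes, not genotypes.

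None of the members passed the test once p was adjusted. Under limma with p adjusted by Benjamini-Hochberg over the whole table, 0 of the 42 tested members had an adjusted p under 0.05, as did 0 of all 6761 tested genes (0%), and the smallest adjusted p of a member was 0.106. Members are therefore described at an unadjusted p under 0.05, which 3 members passed as higher (7.14%) and 1 as lower (2.38%) in CD37 -/- LSCs. Over all tested genes these shares were 16.1% and 7.96%. The 3 higher genes encode ER proteins (Hsp90b1, Pdia4 and Dnajb9), and the lower gene encodes the mitochondrial cochaperonin HSP10 (Hspe1). Both CD37 -/- libraries were above both CD37 fl/fl libraries for 14 members (33.3%, against 38.2% of all tested genes) and below them for 11 (26.2%, against 23.7%), and the groups overlapped for 17. The median log2 fold change was 0.01 over the members and 0.11 over all tested genes, with 21 members higher and 21 lower.

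**Figure D2:**
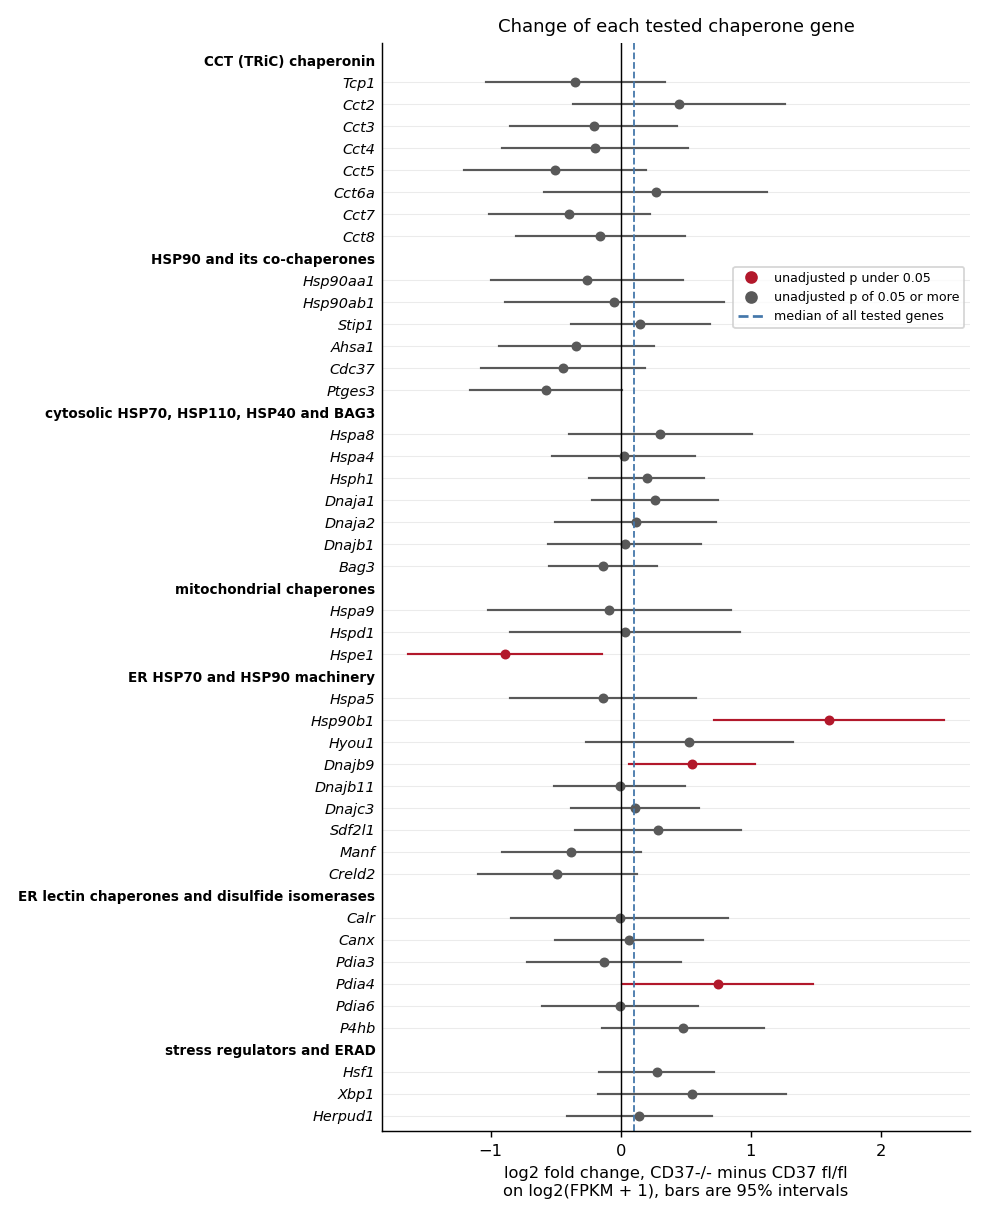
Log2 fold change (CD37 -/- minus CD37 fl/fl) of the 42 tested members on log2(FPKM + 1), with the 95% interval from limma as bars and genes grouped by role; red marks an unadjusted p under 0.05 and the dashed line the median of all tested genes (0.11). The interval includes 0 for 38 members, and Hsp90b1 stands farthest from 0 at 1.60.

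The widest change was that of Hsp90b1, which encodes GRP94. Hsp90b1 (ENSMUSG00000020048, chr10:86690209-86705509 on GRCm38, minus strand) had an FPKM of 6.45 and 12.1 in CD37 fl/fl and of 23.9 and 35.2 in CD37 -/- LSCs, behind which stood 1513, 3216, 6478 and 12193 reads. The groups did not overlap, and the lower CD37 -/- library lay well above the higher CD37 fl/fl library. The mean was 3.18-fold higher in CD37 -/- LSCs (9.29 ± 4.02 against 29.5 ± 8.03, SD, n = 2 each). On the log2 scale it differed by 1.60 (SE 0.36), with an adjusted p of 0.106 (limma, Benjamini-Hochberg). It was between 1.19 and 2.01 in 15 alternative analyses and kept an unadjusted p under 0.05 in each. The pseudogene 1810014B01Rik covers 4598 bases of Hsp90b1 on the opposite strand and had 171, 274, 156 and 181 reads, fewer than Hsp90b1 in every library. Whether counting used the strand is not given in the sources used here.

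BiP, the HSP70 partner of GRP94 in the ER lumen, was not among the genes that passed. Hspa5, its gene (ENSMUSG00000026864, chr2:34771970-34777547), had an FPKM of 271 and 351 in CD37 fl/fl and of 299 and 264 in CD37 -/- LSCs, and the groups overlapped. The log2 fold change was -0.13, with a 95% interval of -0.85 to 0.58. By exon length, Hsp90b1 stood at 0.0686 and 0.0993 of the Hspa5 level in CD37 fl/fl LSCs and at 0.229 and 0.384 in CD37 -/- LSCs, a log2 difference of 1.85. With 2 libraries against 2, an exact two-sided permutation test cannot give a p below 0.333, which was its value here.

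Both genes carry the ER stress response element in their promoters, a site with a CCAAT box and a CCACG box 9 bases apart, through which ATF6 acts together with NF-Y. The letters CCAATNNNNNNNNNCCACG were searched on both strands in the 300 bases around each start (250 before and 50 after) of the RefSeq promoters on GRCm38.p6, which held 36 of the 44 members. A match was found for 7 members (19.4%), against 37 of all 27025 genes (0.137%). These matches are shown because Hsp90b1 passed the unadjusted test and the other 6 genes that share the element did not. Capitals mark both boxes, and each match is written 5′ to 3′ on the strand where it reads as CCAAT.

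Hspa5, chr2:34772025-34772043, + strand: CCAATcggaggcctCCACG
Hsp90b1 far match, chr10:86705638-86705656, - strand: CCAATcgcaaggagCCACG
Hsp90b1 near match, chr10:86705533-86705551, + strand: CCAATcgtgcctcaCCACG
Calr, chr8:84847075-84847093, + strand: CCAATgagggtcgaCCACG
Canx, chr11:50325800-50325818, - strand: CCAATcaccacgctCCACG
Pdia6, chr12:17266491-17266509, + strand: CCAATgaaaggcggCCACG
Dnajc3, chr14:118937827-118937845, + strand: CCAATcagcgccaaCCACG
Creld2, chr15:88819520-88819538, - strand: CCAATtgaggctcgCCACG

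The match lay 47 to 65 bases before the RefSeq start in Hspa5. Hsp90b1 had a match 194 to 212 bases before its RefSeq start and another 89 to 107 bases before it, the latter on the opposite strand. The RefSeq start of Hspa5 lies inside the gene span given above, so the Hspa5 match lies within that span. Hsp90b1 was the gene with a pair of matches among the 7. Both promoters are given whole for the 250 bases before the start, and in Hsp90b1 the nearer match reads as CGTGG and ATTGG, the reverse complement of both boxes.

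Hsp90b1 promoter, chr10:86705445-86705694, minus strand: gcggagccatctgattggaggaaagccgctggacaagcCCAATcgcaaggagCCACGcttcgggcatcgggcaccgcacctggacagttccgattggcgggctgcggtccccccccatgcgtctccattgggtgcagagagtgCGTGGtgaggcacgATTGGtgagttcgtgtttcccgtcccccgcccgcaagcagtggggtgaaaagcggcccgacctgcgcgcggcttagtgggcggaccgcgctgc
Hspa5 promoter, chr2:34771840-34772089, plus strand: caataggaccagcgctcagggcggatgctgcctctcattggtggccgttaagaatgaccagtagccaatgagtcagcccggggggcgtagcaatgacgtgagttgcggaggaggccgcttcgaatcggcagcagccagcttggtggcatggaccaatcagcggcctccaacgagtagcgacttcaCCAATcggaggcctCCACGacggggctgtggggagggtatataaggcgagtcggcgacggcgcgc

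Of the other 5 genes with the element, Dnajc3, which encodes the BiP cochaperone p58IPK, had an FPKM of 2.45 and 3.41 in CD37 fl/fl and of 3.06 and 3.37 in CD37 -/- LSCs. Calnexin (Canx) had 17.6 and 20.9 against 19.1 and 21.1. The disulfide isomerase gene Pdia6 had 31.2 and 37.6 against 34.3 and 34.0. These 3 genes overlapped between the groups, with log2 fold changes of 0.11, 0.06 and -0.01. Calr had an FPKM of 362 and 595 in CD37 fl/fl and of 453 and 471 in CD37 -/- LSCs and overlapped too (log2 fold change -0.01). Creld2, an ER stress-inducible secreted protein gene, had 22.6 and 26.2 against 19.4 and 15.1 and was lower in both CD37 -/- libraries, without passing the test (-0.49, 95% interval -1.10 to 0.12). An element of this kind thus stood before genes that were higher, lower and overlapping in CD37 -/- LSCs.

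**Figure D3:**
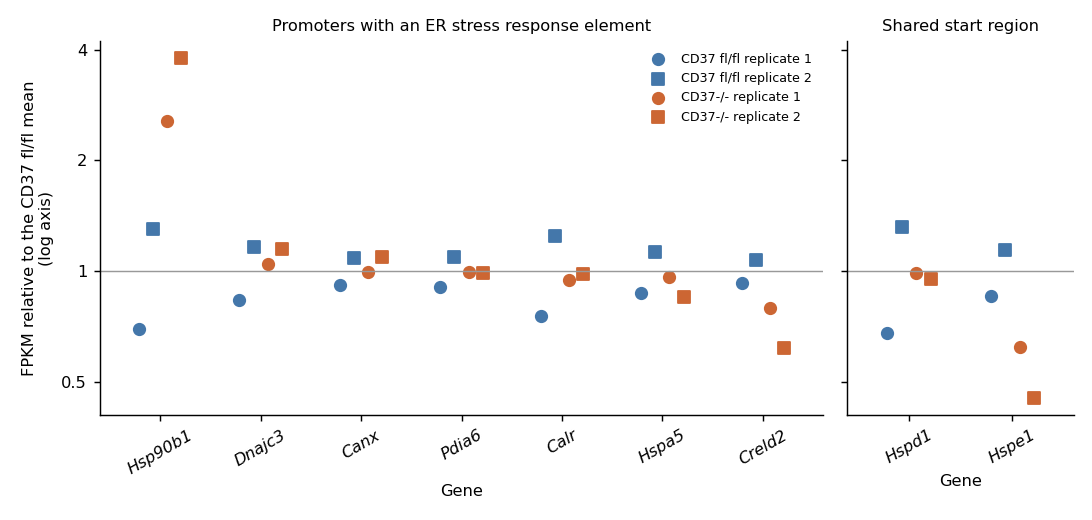
FPKM in each library relative to the CD37 fl/fl mean, on a log axis, for the 7 members with an ER stress response element (left) and for Hspd1 and Hspe1, which share a start region (right); blue, CD37 fl/fl, orange, CD37 -/-, circles, replicate 1, squares, replicate 2. Only Hsp90b1 has both orange points above 2 on the left, and on the right the orange points of Hspe1 lie below both blue points while those of Hspd1 lie between them.

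Of the remaining ER HSP70 and HSP90 machinery, Dnajb9, which encodes the J-domain protein ERdj4, passed the unadjusted test. Dnajb9 (chr12:44205559-44210326) had an FPKM of 3.95 and 4.91 in CD37 fl/fl and of 7.08 and 6.78 in CD37 -/- LSCs, 1.56-fold higher in the mean, from 289, 406, 599 and 732 reads. The libraries of each group lay close together and the groups did not overlap. On the log2 scale it differed by 0.55 (SE 0.20, adjusted p = 0.172, limma, Benjamini-Hochberg), and it kept an unadjusted p under 0.05 in 7 of 15 alternatives.

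Hyou1, the ER HSP110 that acts as nucleotide exchange factor of BiP, had an FPKM of 15.8 and 26.7 in CD37 fl/fl and of 26.7 and 33.9 in CD37 -/- LSCs. Its groups nearly touched, and the difference of 0.53 had a 95% interval of -0.27 to 1.32. Sdf2l1, a partner of ER J-domain proteins, had 104 and 106 against 136 and 121 (0.29). Dnajb11, which encodes ERdj3, was the steadiest gene of this group at 12.4 and 12.1 against 12.4 and 12.0 (-0.01). Manf, an ER stress-inducible factor that binds BiP, had 6.01 and 7.90 against 5.51 and 4.66 (-0.38), lower in both CD37 -/- libraries but not past the test. Rbm15b lies within the Manf span on the same strand over 6511 bases, so reads of Manf may be shared. Over the 9 genes of this group the median log2 fold change was 0.11, with 2 passing as higher and 0 as lower. Over all tested genes the median was 0.11 too, and 16.1% passed as higher and 7.96% as lower.

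Among the ER lectin chaperones and disulfide isomerases, Pdia4 (ERp72) was the gene that passed. Pdia4 (ENSMUSG00000025823, chr6:47796141-47813430) had an FPKM of 5.77 and 9.75 in CD37 fl/fl and of 11.7 and 15.2 in CD37 -/- LSCs, from 1530, 2921, 3580 and 5937 reads. The groups did not overlap, although CD37 fl/fl replicate 2 came near CD37 -/- replicate 1. The difference was 0.75 on the log2 scale (SE 0.30, adjusted p = 0.203, limma, Benjamini-Hochberg), or 1.73-fold in the mean. Without CD37 fl/fl replicate 1 it was 0.41 and did not pass, and it passed in 9 of 15 alternatives.

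P4hb, which encodes the classical protein disulfide isomerase, had an FPKM of 94.0 and 98.6 in CD37 fl/fl and of 135 in both CD37 -/- libraries. Replicates were near equal within each genotype and the groups did not overlap, but the difference of 0.48 did not pass the test (95% interval -0.14 to 1.11). It passed unadjusted in 4 of 15 alternatives, with every gene above 0, after quantile normalization, after TPM rescaling and without a trend of the variance with the level. Pdia3 (ERp57), the isomerase that works with the lectin chaperones, had 47.6 and 49.7 against 46.2 and 42.8 (-0.13). Thus the isomerases differed among themselves, from -0.13 for Pdia3 to 0.75 for Pdia4.

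Xbp1, the transcription factor that is spliced in the unfolded protein response, had an FPKM of 56.3 and 45.1 in CD37 fl/fl and of 63.1 and 87.3 in CD37 -/- LSCs. It was higher in both CD37 -/- libraries without passing the test (0.55, 95% interval -0.17 to 1.28), and splicing cannot be read from gene totals. Herpud1, an ER membrane protein of ER-associated degradation, had 21.1 and 21.8 against 25.4 and 22.4 (0.14). Its promoter held the ATF4 composite element, found for 1 of 36 members and for 1.03% of all genes. Hsf1, the heat shock factor, had an FPKM of 1.96 and 2.32 against 2.57 and 3.05 (0.28). Xbp1, Herpud1 and Hsf1 were each higher in both CD37 -/- libraries, as were 38.2% of all tested genes, and 0 of the 3 passed. The XBP1 core motif was found in 0 of the 36 member promoters and for 0.714% of all genes. Its letters contain CGTGG, the reverse complement of the CCACG box.

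HSP10 and HSP60 form the folding chamber of the mitochondrial matrix, HSP60 as the barrel and HSP10 as its lid. Their genes, Hspe1 (chr1:55088132-55091307, plus strand) and Hspd1 (chr1:55077835-55088243, minus strand), lie head to head and overlap by 112 bases at their starts. Hspe1 had an FPKM of 72.2 and 96.5 in CD37 fl/fl and of 52.3 and 38.1 in CD37 -/- LSCs, from 3516, 5311, 2948 and 2741 reads. It was lower in both CD37 -/- libraries, at 0.536 of the CD37 fl/fl mean (84.4 ± 17.2 against 45.2 ± 10.03, SD, n = 2 each). The difference was -0.89 on the log2 scale (SE 0.30, adjusted p = 0.163, limma, Benjamini-Hochberg), between -1.15 and -0.51 in 15 alternatives, of which 12 kept it past the unadjusted threshold.

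Hspd1, by contrast, had an FPKM of 25.0 and 48.5 in CD37 fl/fl and of 36.4 and 35.0 in CD37 -/- LSCs. Both CD37 -/- libraries lay between the CD37 fl/fl libraries, and the log2 fold change was 0.03 (95% interval -0.85 to 0.92). By exon length Hspe1 stood at 1.58 and 1.09 times the Hspd1 level in CD37 fl/fl, and at 0.786 and 0.595 times in CD37 -/- LSCs, a log2 difference of -0.94 (exact permutation p = 0.333, the smallest that these 4 libraries allow). With the reads of pseudogene copies of both genes added, these ratios were 1.41 and 0.963 against 0.636 and 0.450, so CD37 fl/fl replicate 2 went from above to below 1.

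The start region that both genes share carries a heat shock element, 3 units of GAA or TTC in turn, each 2 bases apart. It is shown because the same bases lie before the RefSeq start of Hspe1 and, on the other strand, before a RefSeq start of Hspd1. Hspe1 was lower in both CD37 -/- libraries, while the groups overlapped for Hspd1. Capitals mark 4 units in a row in the 250 bases before the Hspe1 start, which hold overlapping matches 72 to 89 bases before it.

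Hspe1 promoter, chr1:55087898-55088147, plus strand: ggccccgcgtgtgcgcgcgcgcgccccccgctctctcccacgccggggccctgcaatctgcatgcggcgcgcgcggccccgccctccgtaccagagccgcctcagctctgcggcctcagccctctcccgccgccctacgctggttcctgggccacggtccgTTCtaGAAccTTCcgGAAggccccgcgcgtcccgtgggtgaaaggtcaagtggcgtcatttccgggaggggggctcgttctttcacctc

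For Hspd1 the same matches lay 127 to 144 bases before the RefSeq start of the window chr1:55087883-55088182. They lay within the Hspd1 gene span given above. They were after the other RefSeq start of Hspd1 and outside its window, chr1:55088194-55088493. The element was found for 3 of the 36 members with a promoter (8.33%), against 0.662% of all genes. The third was Hsph1, where it lay after the start. Mortalin (Hspa9), the mitochondrial HSP70, had an FPKM of 20.6 and 43.1 in CD37 fl/fl and of 28.1 and 28.0 in CD37 -/- LSCs. Like Hspd1 it varied most between the CD37 fl/fl libraries, by 1.03 on the log2 scale, against a difference between genotypes of -0.09.

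The CCT ring, which folds actin and tubulin, has 8 subunits that enter each ring in equal number. Their transcripts were at unequal levels, from a TPM of 135 to 199 for Cct3 to 722 to 1467 for Cct6a. Cct6a stood at 5.34 and 7.18 times the Cct3 level in CD37 fl/fl and at 8.54 and 8.96 times in CD37 -/- LSCs. Cct6a spans 59374 bases, 16.4 times its exon length, and holds the snoRNA genes Gm23245 and Snora15 on its strand. Whether reads outside its exons were counted is not given in the sources used here, so its level may be overstated. Of the 8 genes 6 were lower and 2 higher in the mean, the median log2 fold change was -0.20, and 0 passed the test. Cct5 had an FPKM of 87.7 and 98.5 in CD37 fl/fl and of 76.1 and 56.0 in CD37 -/- LSCs, with no overlap (-0.50, 95% interval -1.20 to 0.20). Tcp1 had 61.2 and 83.4 against 59.4 and 52.7 (-0.35). Cct7 had 41.6 and 48.1 against 36.8 and 31.1 (-0.39). These 3 subunits were lower in both CD37 -/- libraries, as were 23.7% of all tested genes. In the mean, 2783 of all 6761 tested genes were lower.

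Cct2 was the subunit higher in both CD37 -/- libraries, at 19.8 and 35.3 against 36.6 and 36.4 (0.45, 95% interval -0.36 to 1.26). Without CD37 fl/fl replicate 2 its difference was 0.85 and passed the unadjusted threshold. Cct6a had an FPKM of 22.0 and 41.1 in CD37 fl/fl and of 38.3 and 34.8 in CD37 -/- LSCs (0.27). Cct3, Cct4 and Cct8 overlapped between the groups, at log2 fold changes of -0.21, -0.20 and -0.16. In all 8 subunits CD37 fl/fl replicate 2 was above replicate 1, by a median of 0.45 on the log2 scale, more than the median absolute difference between genotypes of 0.31.

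Of HSP90 and its co-chaperones 5 of 6 were lower in the mean, by a median of -0.30 on the log2 scale, and 0 passed the test. Of all 6761 tested genes, 2783 were lower in the mean. Hsp90ab1 had an FPKM of 480 and 797 in CD37 fl/fl and of 602 and 595 in CD37 -/- LSCs (-0.05), and Hsp90aa1, the inducible form, 54.9 and 79.1 against 49.4 and 61.1 (-0.26). Ptges3, the p23 co-chaperone that closes the HSP90 cycle, had 14.9 and 18.7 against 12.0 and 9.95 (-0.57, 95% interval -1.16 to 0.01). Cdc37, which brings kinases to HSP90, had 41.4 in both CD37 fl/fl libraries against 34.4 and 26.4 (-0.45). Ahsa1, the activator of its ATPase, had 38.5 and 45.4 against 33.5 and 32.2 (-0.34). Stip1, which links HSP70 to HSP90, was the member higher in the mean, at 15.3 and 15.9 against 18.5 and 16.4 (0.15). Ptges3, Cdc37 and Ahsa1 each had separate groups, with intervals that include 0. They were lower in both CD37 -/- libraries, as were 23.7% of all tested genes.

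Cytosolic HSP70, HSP110 and HSP40 genes were mostly higher in the mean, in 6 of 7 tested genes, with a median of 0.11 and 0 past the test. Of all 6761 tested genes, 3978 were higher in the mean, and their median was 0.11 as well. Hspa8, the constitutive HSC70, had an FPKM of 132 and 152 in CD37 fl/fl and of 154 and 199 in CD37 -/- LSCs (0.31, 95% interval -0.40 to 1.01). Dnaja1 had 6.06 and 6.85 against 7.56 and 8.38 (0.27), and Hsph1, the HSP110 exchange factor, 3.13 and 3.65 against 4.19 and 3.88 (0.20). In these 3 genes both CD37 -/- libraries were above both CD37 fl/fl libraries, as they were in 38.2% of all tested genes. The overlapping genes were Hspa4 (0.02), Dnaja2 (0.11) and Dnajb1 (0.03), an HSF1 target with an FPKM of 23.8 and 19.0 against 22.0 and 21.5. Bag3, the co-chaperone of selective autophagy and an HSF1 target as well, had 1.80 and 1.82 against 1.71 and 1.42 (-0.13). The immediate early genes, a list for handling stress, summed to an FPKM of 721 and 655 in CD37 fl/fl and of 521 and 525 in CD37 -/- LSCs, with 5 of 11 tested genes higher and 6 lower in the mean (median -0.35). Jund (118 and 85.9 against 36.1 and 31.4) and Fosb (9.42 and 9.68 against 1.39 and 4.40) passed as lower and 0 as higher (18.2% and 0%, against 7.96% and 16.1% of all tested genes), and the part of these genes in the chaperone values was not tested.

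Reads were also counted for copies of some of these genes. Within the table, 11 processed pseudogenes shared at least 20% of their 15-base stretches with 8 members, and how reads that match several places were assigned is not given in the sources used here. The Ptges3 copy had 337 and 1156 reads in the CD37 fl/fl and 1283 and 2221 in the CD37 -/- libraries, that is 8.04% and 19.4% against 32.9% and 53.9% of the reads of Ptges3. With the copy added, the log2 difference of Ptges3 in RPM (reads scaled by the library total) went from -0.62 to -0.29. Copies of Hspa8 had 51.3% and 49.0% of its reads in CD37 fl/fl, against 28.9% and 34.3% in CD37 -/- LSCs, and adding them moved the difference from 0.30 to 0.11. For Hspd1 it moved from 0.03 to 0.20, and for Hspe1, whose copy had at most 0.939% of its reads, from -0.91 to -0.92. 

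Members also differed within genotypes, and mostly in 1 direction. CD37 fl/fl replicate 2 was above replicate 1 in 39 of 42 members (92.9%), against 61.2% of all tested genes, with a median difference of 0.26 against 0.09 on the log2 scale. In 20 members that difference was larger than the one between genotypes. CD37 -/- replicate 2 was above replicate 1 in 12 members (28.6%), against 50.9% of all tested genes, with medians of -0.07 and 0.01. Without CD37 fl/fl replicate 1 the median log2 fold change of the members was -0.14, and without CD37 fl/fl replicate 2 it was 0.18.

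**Figure D4:**
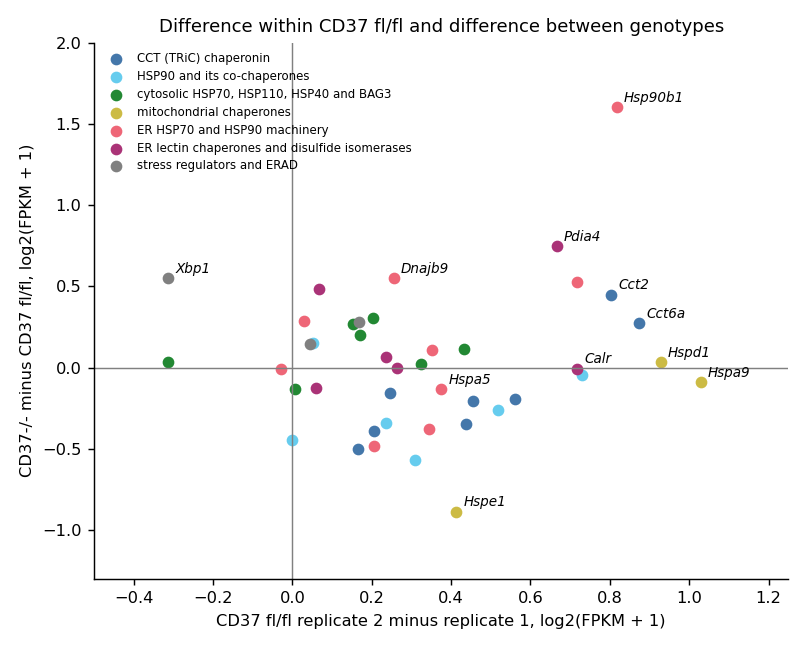
Each of the 42 tested members by the difference between both CD37 fl/fl libraries (x axis) and the difference between genotypes (y axis), both on log2(FPKM + 1), with colors for the 7 role groups. 39 points lie right of 0 on the x axis, Hspa9 reaches 1.03 there with a genotype difference near 0, and Hsp90b1 lies highest at 1.60.

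Exon length moved with the change between genotypes across the transcriptome. The median log2 fold change of protein-coding genes went from -0.44 for exon lengths under 1000 bases (225 genes) to 0.24 for those over 6000 bases (1234 genes), and Spearman's rho across 5768 genes, which are not independent, was 0.33, against -0.01 across the 42 members. Hspe1, with 1474 bases, was in the class of 1000 to 1500 bases (342 genes), whose median was -0.28 and whose 5th percentile was -1.11, below its value of -0.89. Hsp90b1, with 4032 bases, was above the 95th percentile of its class (0.91). Pdia4 and Dnajb9 lay below the 95th percentile of theirs (0.88). The part of length in these values was not tested.

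**Figure D5:**
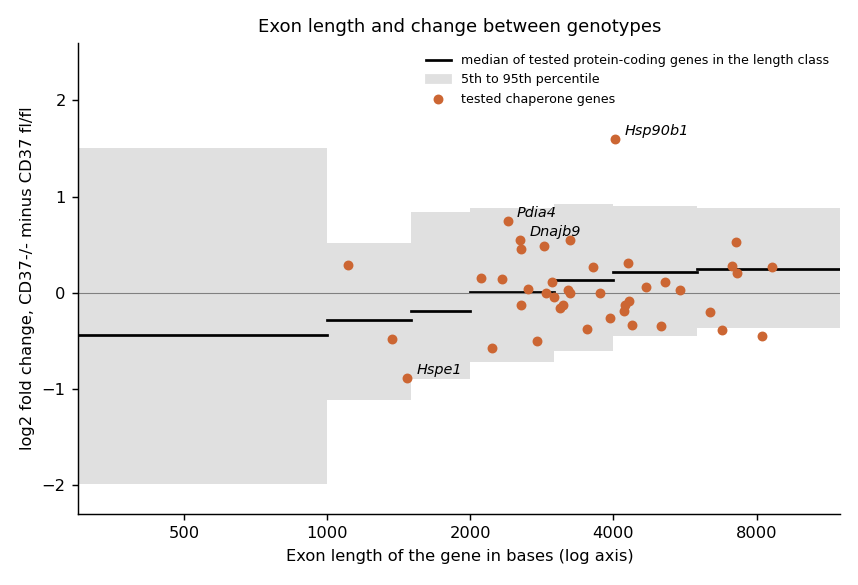
Log2 fold change (CD37 -/- minus CD37 fl/fl) against exon length in bases (log axis), with the median (black) and the 5th to 95th percentile (gray) of the tested protein-coding genes in 7 length classes and the 42 tested members as orange points. The medians go from -0.44 to 0.24 with length, Hspe1 lies within the gray band of its class and Hsp90b1 above the band of its class.

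Other genes of these pathways were followed by lists, of which 92 genes could be tested, and 4 passed as higher and 4 as lower at an unadjusted p under 0.05, around a median of 0.01. Each share was 4.35%, against 16.1% as higher and 7.96% as lower over all tested genes, whose median was 0.11. In ER-associated degradation, 11 of 16 genes were higher in both CD37 -/- libraries (38.2% of all tested genes were). Of these 16 tested genes 2 passed as higher (12.5%, against 16.1% of all tested genes). They were Syvn1, the ubiquitin ligase HRD1, and Vcp, the segregase p97, which is named after its values were seen. Syvn1 had an FPKM of 3.50 and 4.41 in CD37 fl/fl and of 6.93 and 11.3 in CD37 -/- LSCs (log2 fold change 1.00). Vcp had 0.680 and 1.01 against 2.10 and 3.50 (1.02). Both were separate between the groups, which was a condition for naming Syvn1.

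Of 10 tested sensors and genes of the PERK branch, Ppp1r15b, which encodes the constitutive eIF2α phosphatase subunit CReP, passed as higher. Its FPKM was 13.1 and 12.8 in CD37 fl/fl, against 27.0 and 35.3 in CD37 -/- LSCs (1.19, adjusted p = 0.094, limma, Benjamini-Hochberg). Of 12 tested prefoldin subunits and CCT cofactors, 2 passed as lower (16.7%, against 7.96% of all tested genes) and 0 as higher (against 16.1%). Pfdn5 had an FPKM of 123 and 82.2 in CD37 fl/fl and of 55.8 and 38.7 in CD37 -/- LSCs (-1.10), and Pfdn6 135 and 123 against 86.3 and 52.6 (-0.92). Prefoldin delivers actin and tubulin to CCT, and both genes have exon lengths of under 1500 bases, 1394 and 1193.

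Other ER folding factors had 1 of 17 genes past the test, the prolyl isomerase gene Fkbp2, at 74.8 and 55.6 against 41.7 and 34.3 (-0.75). Other cytosolic chaperones had 1 of 24, the phosphatase gene Ppp5c of HSP90 complexes, at 3.33 and 4.55 against 5.86 and 6.69 (0.57). Other mitochondrial chaperones and proteases had 1 of 13, the matrix protease gene Clpp, at 18.9 and 21.0 against 13.9 and 9.61 (-0.74). These shares were 5.88% as lower, 4.17% as higher and 7.69% as lower. Over all tested genes 7.96% passed as lower and 16.1% as higher. The groups did not overlap in Fkbp2, Ppp5c and Clpp, which was a condition for naming them. In bulk libraries such as these, fewer cells of a type and less RNA per cell cannot be told apart.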

How the data were processed

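The authors deposited FPKM values for 2 CD37 fl/fl and 2 CD37 -/- libraries, with 1 column per library. The submitters' processing notes name fastp 0.20.1, STAR 2.7.7a, featureCounts 2.0.0, edgeR and mm39 without their roles, and the annotation is not given in the sources used here. Gene names, spans and exon lengths were taken from GENCODE M21 on GRCm38, which matched 17045 of 17104 identifiers (99.7%) and whose gene spans gave whole reads, against 10.8% to 11.5% of low values with exon lengths. The median gene span was 5.02 times the exon length, so FPKM is low in genes with long introns. Recovered reads served for depth, copies and an alternative.

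On log2(FPKM + 1), the genes whose mean FPKM reached 1 were tested by limma 3.58.1 in R 4.3.3 (lmFit, then eBayes with trend), over all 4 libraries with genotype as the term and Benjamini-Hochberg adjustment. The code was tested on simulated data. Tables were made with pandas 2.3.3 and numpy 2.4.6 in Python 3.11.15, figures with matplotlib 3.10.9, and permutation tests with scipy 1.17.1. A 95% interval is that of the difference between the genotype means, from the spread between libraries as limma estimates it.

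The members and lists were chosen with earlier results of these data known. All 44 members are named, and genes of the other pathway lists are named where the unadjusted p was under 0.05, the groups did not overlap and the mean FPKM was at least 5 (at most 3 each way per list). Marker, LSC and immediate early genes are outside this rule and were named as checks, some after their values were seen. The sensor genes Ern1, Eif2ak3 and Atf6 are outside it too and were named because they were not tested. Promoters came from RefSeq on GRCm38.p6, and Hsp90aa1, Hsp90ab1, Hspa8, Hspa9, Hyou1, Hsf1, Cct4 and Manf had no entry there. Protein sequences were not analysed here. The alternatives changed the pseudocount (0.1), the filter (every gene above 0, or a mean FPKM from 5 up), the scaling (quantile, deposited FPKM rescaled to TPM, upper quartile, or exon length in place of the span), the variance model (no trend, robust, or limma-voom on genes with a mean of at least 10 recovered reads) or the samples (a block by replicate number, or 1 library left out).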

Additional observations from a re-analysis of the deposited data

How the results depend on the processing

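At an adjusted p under 0.05, 0 members passed in any of the 15 alternatives (limma), while the number of all genes was 45 with a mean FPKM of at least 5, 88 with robust estimation, 21 with exon length and 0 in the others but the block. With the replicate number as a block it was 73, and 2 members were higher and 1 lower at an unadjusted p under 0.05. The numbers were not stated to pair the libraries, and replicates 1 of both genotypes had a correlation of -0.04 in their deviations.

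Unadjusted, the genes higher in CD37 -/- LSCs numbered 2132 with every gene above 0, 380 with a minimum mean FPKM of 5, 703 after quantile normalization, 2047 after TPM rescaling, 580 after upper quartile scaling and 2498 with limma-voom. Those lower numbered 195 after TPM rescaling and 1168 after upper quartile scaling. With 1 library left out, 550 to 1020 were higher and 259 to 642 lower, with the fewest of both without CD37 -/- replicate 2. Of 42 members, 9 were higher and 0 lower after TPM rescaling, against 2047 and 195 of all 6761 tested genes. After upper quartile scaling 1 member was higher and 8 were lower, against 580 and 1168 of all 6761. After quantile normalization 3 members were lower. 2 members were lower with every gene above 0, with a minimum mean FPKM of 5, with no trend, robust estimation or limma-voom. The numbers of all genes lower in these settings and after quantile normalization are not given here, so these member counts stand without a share. With 1 library left out, 1 group holds 1 library, and the members are described by their median log2 fold change below.

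The median log2 fold change of the members was 0.37 after TPM rescaling, where that of all genes was 0.40, against -0.24 and -0.09 after upper quartile scaling, 0.08 and -0.02 after quantile normalization and -0.01 and 0.25 with limma-voom. With 1 library left out it was -0.14 to 0.18. The sign of 18 of 42 members was kept in every alternative, and 14 changed sign after TPM rescaling, 9 after upper quartile scaling and 7 after quantile normalization. Dnajb9 kept its unadjusted call in 7 alternatives (log2 fold change 0.33 to 0.87) and Pdia4 in 9 (0.41 to 1.09). Hspe1 lost it after TPM rescaling and without CD37 fl/fl replicate 2 or CD37 -/- replicate 2. The causes were not tested. Depth was 15327355 to 22627499 reads, and 2 libraries per genotype limit the precision.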
